A study of Mus musculus with 26 samples.

Results

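The genes described are 10 antioxidant enzymes of the mouse left ventricle: Sod1, Sod2, Cat, Prdx3, Prdx5, Gpx1, Gpx3, Gpx4, Txn2 and Nqo1. They were taken by gene name from a matrix of read counts for 56941 genes, and all 10 were among the 15357 genes with enough counts to be tested. The matrix came from RNA sequencing of 26 ventricles in 4 groups, from 6 control males, 7 knockout males, 6 control females and 7 knockout females. Knockout mice (cKO, aMHC-CreTg/0-Ppp2r2aL/L) carried a Cre transgene driven by the alpha myosin heavy chain promoter, which is active in cardiomyocytes, together with floxed alleles of Ppp2r2a, the gene for the B55α regulatory subunit of the phosphatase PP2A. Control mice (Ctrl, aMHC-Cre0/0-Ppp2r2aL/L) carried the same floxed alleles without Cre. All mice, controls included, were 12 to 16 weeks old and had received saline for 2 weeks from an implanted minipump. The strain is labelled C57BL/6N, but the background is mixed, with the Cre transgene bred in from FVB and the floxed allele made in C57BL6/N. A group with Cre on unfloxed alleles was not analysed here, and effects of Cre or of FVB sequence cannot be told apart from those of the deletion. The other cells of the ventricle keep their Ppp2r2a, and in bulk tissue fewer cells of a type and less RNA per cell cannot be told apart. The series asks how B55α regulates the cardiac transcriptome in each sex.

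Antioxidant enzymes work in series. Superoxide dismutases turn superoxide, much of which leaks from the mitochondrial respiratory chain, into hydrogen peroxide, and catalase, peroxiredoxins and glutathione peroxidases then reduce the peroxide to water. Cardiomyocytes are packed with mitochondria, and several of these enzymes (Sod2, Prdx3, Txn2 and a pool of Prdx5) work inside them, while the transcription factor NRF2 is the known regulator of many antioxidant genes, Nqo1 among them.

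The promoters of 4 of the genes are shown, and these genes were picked by their values given below. Whether the promoters bear on those values was not tested. Sod1 was the 1 gene of the 10 to pass the test in any comparison, Txn2 and Prdx5 lay below the control mean in every knockout mouse, and Nqo1 had the largest fold difference between genotypes. Each line gives the 250 bases before the transcription start, 5′ to 3′ on the strand of the gene, from RefSeq on GRCm38.p6. Capitals mark GC boxes (GGGCGG, a letter pattern bound by SP1), TATA boxes (TATAAA) and the core of the NRF2-binding antioxidant response element (TGACNNNGC), each searched on both strands, and neighbouring matches can overlap.
Sod1, chr16:90220512-90220761, plus strand: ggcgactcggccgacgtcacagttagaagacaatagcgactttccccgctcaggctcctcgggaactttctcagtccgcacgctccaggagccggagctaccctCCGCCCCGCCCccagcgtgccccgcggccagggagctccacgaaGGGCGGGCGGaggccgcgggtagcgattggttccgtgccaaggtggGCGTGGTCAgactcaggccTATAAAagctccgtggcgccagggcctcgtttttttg
Txn2, chr15:77928995-77929244, minus strand: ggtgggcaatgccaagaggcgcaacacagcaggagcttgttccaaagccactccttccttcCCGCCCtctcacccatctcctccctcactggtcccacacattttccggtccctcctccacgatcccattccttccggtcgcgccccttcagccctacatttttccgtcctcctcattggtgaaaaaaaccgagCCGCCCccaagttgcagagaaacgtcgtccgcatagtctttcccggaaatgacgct
Prdx5, chr19:6910107-6910356, minus strand: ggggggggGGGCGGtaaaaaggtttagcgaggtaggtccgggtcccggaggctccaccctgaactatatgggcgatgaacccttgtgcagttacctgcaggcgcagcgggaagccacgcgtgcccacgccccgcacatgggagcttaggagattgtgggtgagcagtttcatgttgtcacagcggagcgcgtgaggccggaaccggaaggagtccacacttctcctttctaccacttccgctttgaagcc
Nqo1, chr8:107403206-107403455, minus strand: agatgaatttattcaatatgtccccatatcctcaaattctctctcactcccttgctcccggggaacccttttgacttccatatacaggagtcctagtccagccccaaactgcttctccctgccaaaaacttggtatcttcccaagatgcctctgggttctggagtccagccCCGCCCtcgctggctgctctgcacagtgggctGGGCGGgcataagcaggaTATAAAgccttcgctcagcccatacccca
In windows from 250 bases before to 50 bases after the start, a GC box stood in 12 of 13 windows of the 10 genes, against 35.7% of all 32851 windows. Each of the 10 genes had a window with a GC box. Gpx4 has 4 of the 13 windows, and some of these overlap and share GC boxes. The share over all windows is not matched for GC content. Sod1 and Sod2 held 4 GC boxes each. The NRF2 core was found in 1 gene, Sod1, as GCGTGGTCA on the opposite strand from 56 bases before the start, against 12.4% of all windows. The letters of the TATA box lay in the windows of Sod1, Prdx3 and Nqo1, against 13.6% of all windows. In Sod1 and Nqo1 they were on the same strand, from 37 and 29 bases before the start. In Prdx3 they were on the opposite strand, from 239 bases before it. The letters of the ERR element (TCAAGGTCA, bound by estrogen-related receptors) and of the NRF1 element (GCGCATGCG) were in none of the 13 windows, and they are in 0.423% and 1.75% of all windows. A match of letters describes these windows and says nothing of binding. Sequence further than 250 bases before the start was not searched, so elements of Nqo1 or the other genes that lie there would be missed.

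Libraries held 14403102 to 30867399 counts in all. On these totals 3 counts, the limit that a count of 0 allows, correspond to 0.0972 to 0.208 CPM (counts per 1000000). The CPM of genes given below are on TMM-scaled totals. The 10 genes had between 592 and 22490 counts in any library, far above that limit. Ppp2r2a, the deleted gene, was read at 37.3 ± 10.2 CPM (SD, n = 6) in Ctrl males and 14.1 ± 1.81 (n = 7) in cKO males. In females it was read at 40.3 ± 3.59 CPM (n = 6) in Ctrl and 13.4 ± 2.07 (n = 7) in cKO, and the genotypes did not overlap in either sex. Ctrl males 3 and 6 stood apart from the other controls in Ppp2r2a, at 24.9 and 24.1 CPM against 36.2 to 47.7 in the other 10 controls and at most 16.2 in cKO mice. For the log2 fold changes of Nqo1, Sod1, Sod2, Prdx5, Prdx3 and Txn2 in males, and for the count of all genes called, values are given with and without them. Unless stated otherwise, other results that use Ctrl males include both mice. These are CPM ranges and medians, counts of mice beyond a range or mean, the mean of both sexes, sex differences, markers and other gene lists. Without them the edgeR calls over all genes in males fell from 68 to 7. Markers of cardiomyocytes were high in every library (summed level 50422 to 71004 CPM), and the 3 markers of atrial cardiomyocytes summed to 1.13 to 2.31 CPM.

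Per length of the longest annotated transcript, Gpx4 had the highest level of the 10 at 601 ± 35.7 CPM per kb (SD, n = 26) and Nqo1 the lowest at 28.7 ± 4.84. Gpx4 encodes the glutathione peroxidase that reduces lipid peroxides in membranes and guards cells from ferroptosis, and it made up 37.7% of the summed level per kb of the 10 genes (35.6% to 40.7% over the 26 mice). Prdx5, Prdx3 and Gpx3 came next at 194 ± 11.9, 173 ± 10.9 and 173 ± 19.5 CPM per kb, then Txn2 at 113 ± 5.97, Sod2 at 101 ± 6.30, Cat at 88.6 ± 5.78, Gpx1 at 68.8 ± 7.09 and Sod1 at 52.9 ± 4.13. Prdx3 and Gpx3 could not be ordered, since Prdx3 was above Gpx3 in 13 of 26 mice. Every other pair of neighbours held its order in 25 or 26 of the 26 mice. The place of Sod1 and the share of Gpx4 depend on the transcript used. The longest annotated transcript of Sod1 (3.97 kb) is a retained intron form, and per kb of its principal protein-coding isoform (0.641 kb) Sod1 stood at 328 ± 25.6, the second highest level. Prdx5 moved to 281 ± 17.2 by the same change, and the order of the other 8 genes among themselves was the same under both lengths. Per kb of principal isoforms Gpx4 stood at 624 ± 37.1, and its share of the sum is smaller there, since Sod1 and Prdx5 add more to it.

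**Figure D1:**
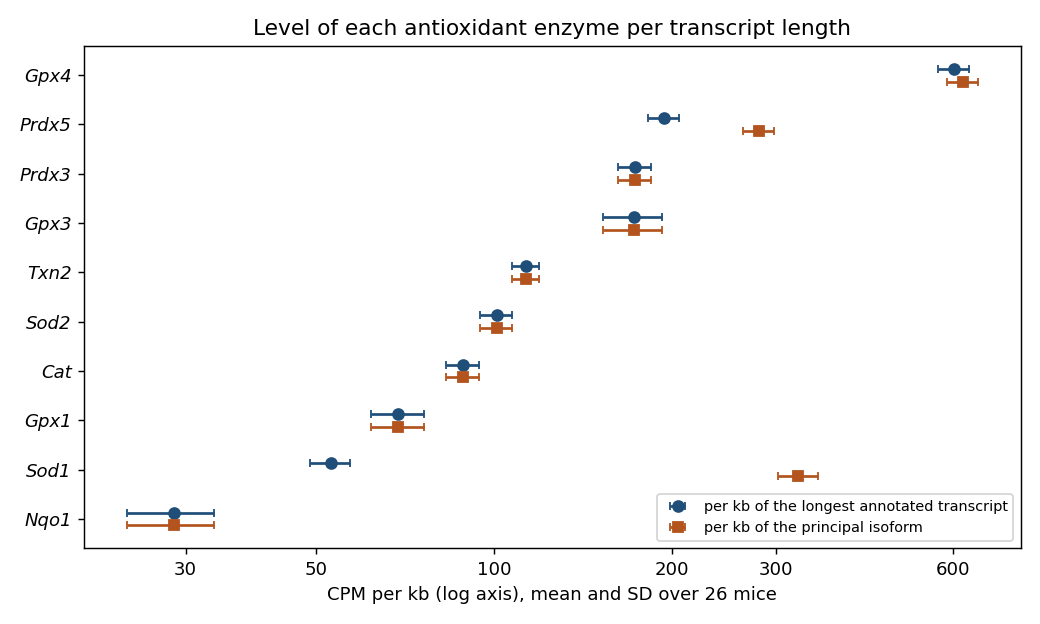
Mean level of each of the 10 genes in CPM per kb on a log axis with the SD over 26 mice, per kb of the longest annotated transcript (circles) and of the principal isoform (squares). Gpx4 is highest and Nqo1 lowest under both, and Sod1 moves from 52.9 to 328.

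Between genotypes the fitted differences of the antioxidant enzymes were small. No gene of the 10 passed an adjusted p under 0.05 (edgeR quasi-likelihood test, Benjamini-Hochberg over all genes) for cKO against Ctrl in males, where 0.443% of all genes passed, in females, where 0.0326% passed, or for the mean of both sexes, where 1.33% passed. In males 8 of the 10 genes had lower means in cKO, with a median log2 fold change of -0.11 against 0.00101 over all genes tested. At an unadjusted p under 0.05 stood 6 of the 10 in males (13.2% of all genes), 2 in females (5.15%) and 6 for the mean (14.1%). All fitted differences lay between -0.24 and 0.17 on the log2 scale in males and between -0.23 and 0.05 in females. For each gene the ranges of Ctrl and cKO mice overlapped in each sex, for Txn2 in males only through Ctrl male 6. The 95% intervals in males, before adjustment for the number of genes, spanned from -0.48 (the lower bound of Nqo1) to 0.34 (the upper bound of Gpx3), and those of Nqo1, Txn2, Sod2, Sod1, Prdx5 and Prdx3 left out 0. With the DESeq2 Wald test, 3 genes passed as lower for the mean of both sexes: Txn2 (adjusted p = 0.0108), Prdx5 (0.0202) and Prdx3 (0.0343). That test also called more genes, 544 of the 8807 it gave an adjusted p (6.18%, with 4.14% lower), against 205 of 15357 in edgeR.

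**Figure D2:**
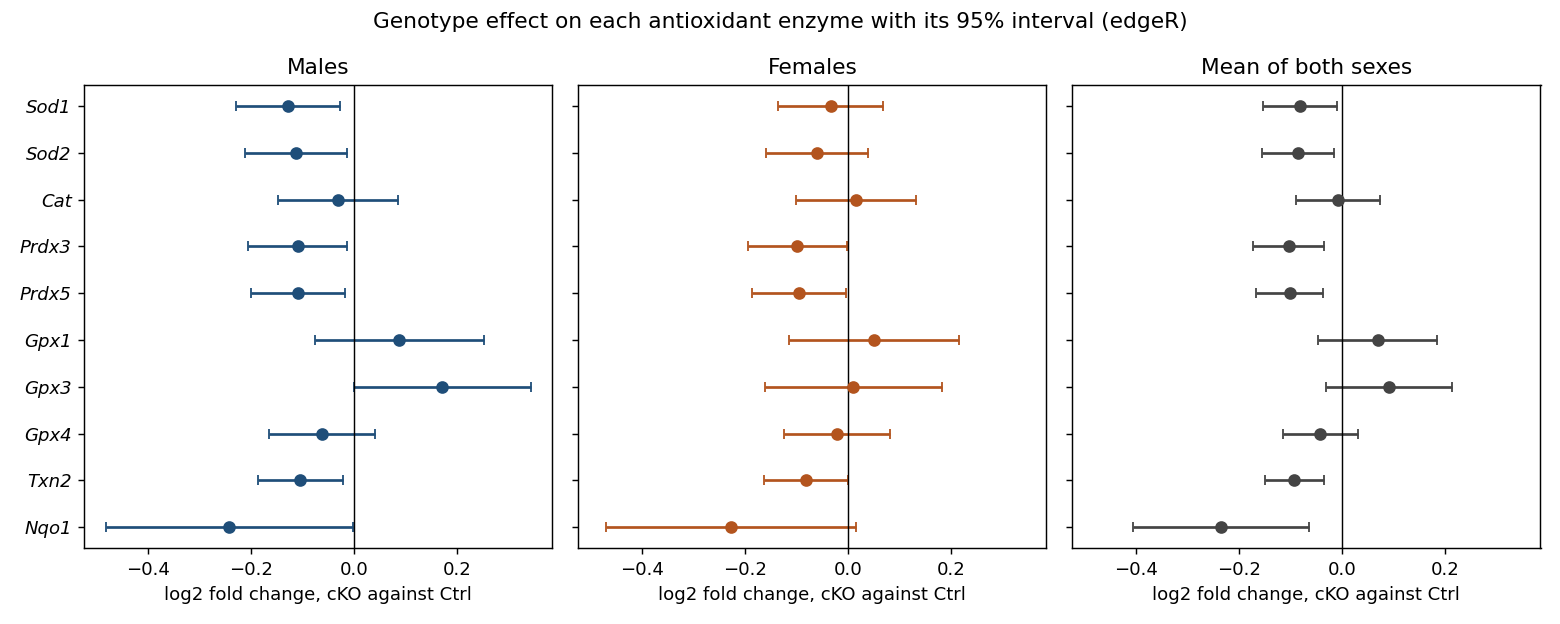
Fitted log2 fold change of cKO against Ctrl for the 10 genes in males, in females and for the mean of both sexes, with 95% intervals from edgeR. Sod1, Sod2, Prdx3, Prdx5, Txn2 and Nqo1 lie to the left of 0 in all 3 panels, and Gpx1 and Gpx3 to the right.

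The superoxide dismutases are the entry step. Sod1, the copper and zinc enzyme of the cytosol, ranged from 192 to 229 CPM (median 208) in Ctrl males and from 182 to 205 (median 193) in cKO males. In females it ranged from 213 to 230.1 CPM (median 222) in Ctrl and from 199.5 to 251 (median 215) in cKO. All 7 cKO males lay below the mean of Ctrl males, 5 of 7 cKO females below that of Ctrl females, and the groups overlapped in both sexes. The log2 fold change was -0.13 ± 0.05 (SE) in males (edgeR adjusted p = 0.238) and -0.03 ± 0.05 in females (adjusted p = 0.987). Sod2, the manganese enzyme of the mitochondrial matrix, ranged from 561 to 661 CPM (median 635) in Ctrl males and from 551 to 616 (median 568) in cKO males. In females the Sod2 ranges were 550.1 to 648 CPM (median 605) in Ctrl and 549.5 to 606 (median 567) in cKO. The fitted difference of Sod2 was -0.11 ± 0.05 in males (edgeR adjusted p = 0.301) and -0.06 ± 0.05 in females (adjusted p = 0.975). After correcting counts for the length and GC of the longest annotated transcripts, Sod2 was at -0.17 in males (edgeR adjusted p = 0.155). Both dismutases thus had slightly lower means in cKO mice of each sex, by less than the spread among mice of a group could separate after adjustment.

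In the mitochondrial peroxide system, Txn2, Prdx5 and Prdx3 had lower means in cKO mice of each sex. Txn2, the thioredoxin that recharges mitochondrial peroxiredoxins, ranged from 226 to 246 CPM (median 239) in Ctrl males and from 213 to 228 (median 221) in cKO males. In females Txn2 ranged from 218 to 259 CPM (median 246) in Ctrl and from 219.9 to 239 (median 233) in cKO. Each of the 14 cKO mice lay below the Ctrl mean of its sex, and 6 of 7 cKO males lay below the whole range of Ctrl males, while no cKO female lay below that of Ctrl females. The ranges in males overlapped only through Ctrl male 6, at 226.2 CPM, 1 of the 2 mice that stood apart in Ppp2r2a. The next lowest Ctrl male was at 230.8 CPM, and the highest cKO male at 228.2. The log2 fold change of Txn2 was -0.10 ± 0.04 in males (edgeR adjusted p = 0.232), -0.08 ± 0.04 in females (adjusted p = 0.948) and -0.09 ± 0.03 for the mean of both sexes (adjusted p = 0.0896), the smallest adjusted p of the 10 genes for genotype. It passed for the mean when Ctrl female 6, which had the lowest Txn2 of the Ctrl females at 218 CPM, was left out (log2 fold change -0.11, adjusted p = 0.0256).

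Prdx5, a peroxiredoxin of mitochondria, peroxisomes and cytosol, ranged from 337 to 386 CPM (median 366) in Ctrl males and from 317 to 357 (median 335) in cKO males. In females it ranged from 348 to 416 CPM (median 369) in Ctrl and from 339 to 366 (median 341) in cKO. Like Txn2, Prdx5 lay below the Ctrl mean of its sex in all 14 cKO mice, and 4 of 7 cKO mice of each sex were below the whole Ctrl range. In males that range began with Ctrl male 3, at 337 CPM, and the next lowest Ctrl male was at 347. Its log2 fold change was -0.11 ± 0.04 in males (edgeR adjusted p = 0.270), -0.10 ± 0.04 in females (adjusted p = 0.948) and -0.10 ± 0.03 for the mean (adjusted p = 0.0973). Prdx3, the peroxiredoxin confined to mitochondria, ranged from 239.5 to 292 CPM (median 268) in Ctrl males and from 230.5 to 269 (median 248) in cKO males, where 2 of 7 lay below the whole Ctrl range. In females Prdx3 ranged from 249 to 271 CPM (median 266) in Ctrl and from 233 to 267 (median 243) in cKO, where 5 of 7 mice lay below that range. The difference of Prdx3 was -0.11 ± 0.05 in males (edgeR adjusted p = 0.301), -0.10 ± 0.05 in females (adjusted p = 0.948) and -0.10 ± 0.03 for the mean (adjusted p = 0.115). In males its size depended on the length and GC correction, with which it was -0.063 (edgeR adjusted p = 0.685), and -0.053 with the replicate number also fitted as a block, where the mean effect was -0.065. In percent, the mean over both sexes differed in cKO by -6.23% for Txn2 (95% interval -9.91% to -2.41%), -6.82% for Prdx5 (-10.9% to -2.57%) and -6.95% for Prdx3 (-11.3% to -2.44%), with intervals before adjustment for the number of genes.

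**Figure D3:**
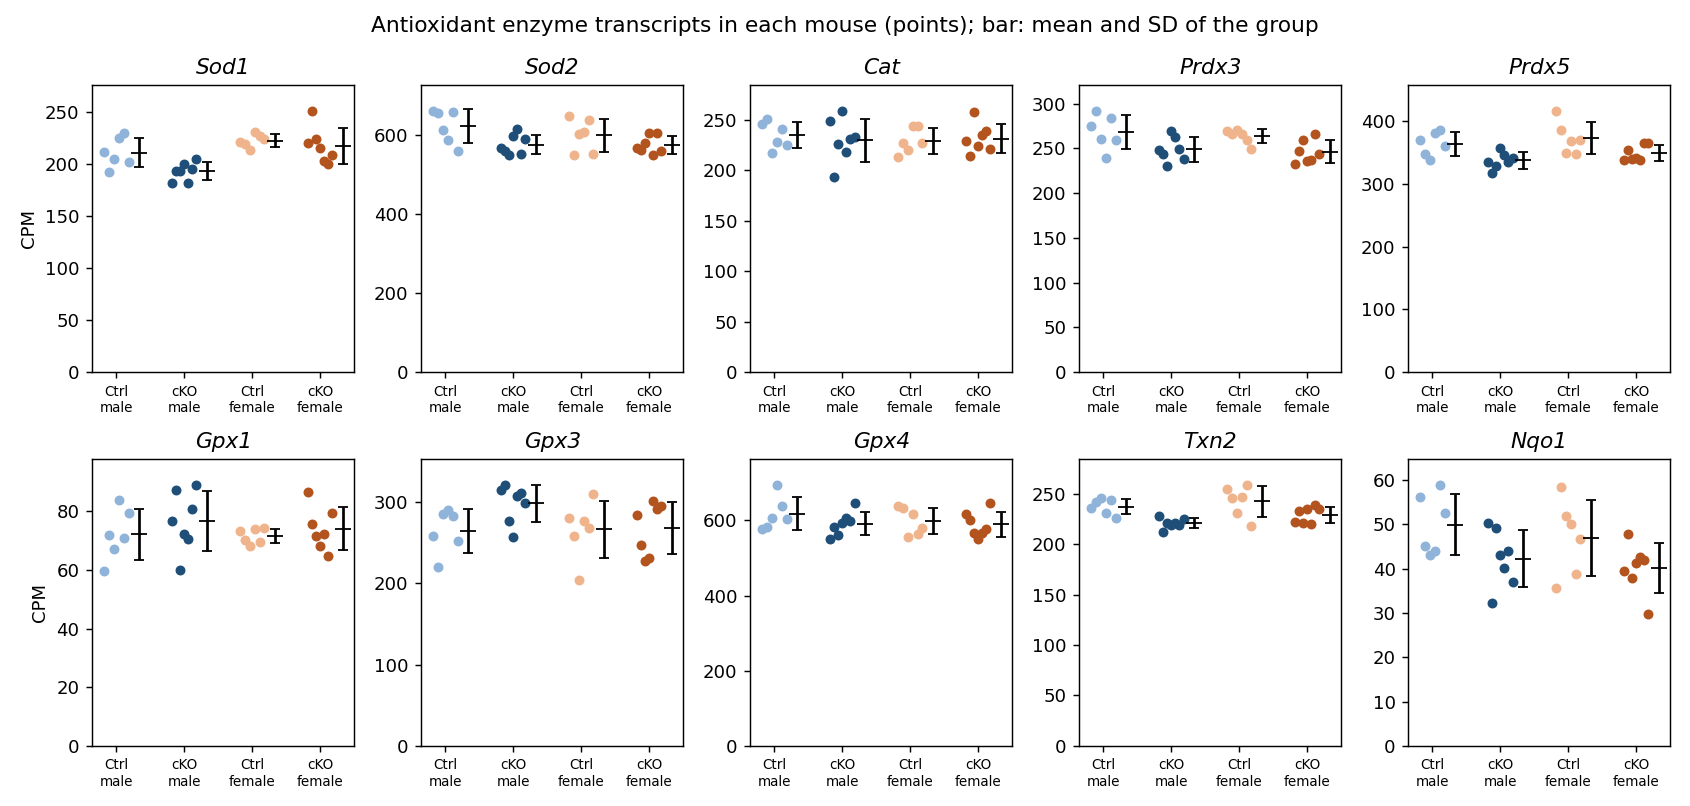
CPM of the 10 genes in each mouse (points) by group, with the group mean and SD (bars), on axes that start at 0. For Txn2 and Prdx5 all 7 cKO mice of each sex lie below the Ctrl mean of that sex. For all 10 genes the groups overlap, for Txn2 in males only through Ctrl male 6.

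Among the glutathione peroxidases, Gpx3 and Gpx1 had higher means in cKO mice of each sex and Gpx4 lower ones, and none passed the test. Gpx3, the form secreted into blood and extracellular fluid, ranged from 220.1 to 291 CPM (median 271) in Ctrl males and from 257 to 322 (median 308) in cKO males, where 5 of 7 mice lay above the whole Ctrl range. In females it ranged from 205 to 311 CPM (median 272) in Ctrl and from 228 to 301 (median 284) in cKO, where 0 of 7 lay above the Ctrl range. The fitted difference was 0.17 ± 0.08 in males (edgeR adjusted p = 0.379) and 0.01 ± 0.08 in females (adjusted p = 0.9999), where its sign reversed in 8 of 36 other fits. Gpx1, a selenoenzyme of cytosol and mitochondria, ranged from 59.8 to 83.9 CPM in Ctrl males, 60.1 to 89.1 in cKO males, 68.2 to 74.4 in Ctrl females and 64.8 to 86.6 in cKO females. Its differences were 0.09 ± 0.08 in males (edgeR adjusted p = 0.699) and 0.05 ± 0.08 in females (adjusted p = 0.987), and 5 of 7 cKO mice of each sex lay above their Ctrl mean. Gpx4 ranged from 578 to 695 CPM in Ctrl males, 551 to 645 in cKO males, 557 to 638 in Ctrl females and 551 to 647 in cKO females. For Gpx4 the differences were -0.06 ± 0.05 in males (edgeR adjusted p = 0.646) and -0.02 ± 0.05 in females (adjusted p = 0.995), with 95% intervals from -0.17 to 0.04 and from -0.13 to 0.08.

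Catalase, the peroxisomal enzyme that splits hydrogen peroxide without a reductant, had the genotype difference nearest to 0 for the mean of both sexes. Cat ranged from 218 to 251 CPM (median 235) in Ctrl males, 194 to 259 (median 232) in cKO males, 213 to 244 (median 227) in Ctrl females and 215 to 258 (median 229) in cKO females. The mean difference over both sexes was -0.0081 ± 0.04 on the log2 scale (edgeR adjusted p = 0.964), with a 95% interval from -0.09 to 0.07. Nqo1, a quinone reductase and a widely used readout of NRF2 activity, showed the largest fold difference and the widest spread, with coefficients of variation of 13.7% to 18.1% within groups. It ranged from 43.1 to 59.0 CPM (median 48.9) in Ctrl males and from 32.2 to 50.4 (median 43.0) in cKO males. In females Nqo1 ranged from 35.7 to 58.4 CPM (median 48.5) in Ctrl and from 29.8 to 47.9 (median 41.3) in cKO. In each sex 6 of 7 cKO mice lay below the Ctrl mean, and the groups overlapped. The log2 fold change of Nqo1 was -0.24 ± 0.12 in males (edgeR adjusted p = 0.371), -0.23 ± 0.12 in females (adjusted p = 0.948) and -0.23 ± 0.08 for the mean (adjusted p = 0.157), where the 95% interval runs from -24.5% to -4.36%. With the length and GC correction and the replicate block together Nqo1 was at -0.14 in males.

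Without Ctrl males 3 and 6 the estimates in males were further from 0 for all 10 genes. Nqo1 was then at -0.27, Sod1 and Sod2 at -0.15, Prdx5 at -0.14, Prdx3 at -0.13 and Txn2 at -0.11, and again no gene of the 10 passed in edgeR (lowest adjusted p = 0.174, for Sod2).

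The genotype effect was not shown to differ between the sexes for any of the 10 genes. In edgeR 0 of 10 passed for the difference of the effects, where 0% of all genes passed, and 0 of 10 had an unadjusted p under 0.05 (3.96% of all genes). The widest estimates, females minus males, were -0.16 ± 0.12 for Gpx3 (95% interval -0.40 to 0.08) and 0.09 ± 0.07 for Sod1 (-0.05 to 0.24). Both intervals include 0, and they reach as far as -0.40 for Gpx3 and 0.24 for Sod1.

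Between the sexes, Sod1 was higher in cKO females than in cKO males. It was read at 217 ± 17.2 CPM (SD, n = 7) in cKO females and 193 ± 8.62 (n = 7) in cKO males, which gave 0.17 ± 0.05 on the log2 scale (SE, edgeR adjusted p = 0.0472), or 12.6% higher with a 95% interval of 5.25% to 20.5%. All 7 cKO females lay above the mean of cKO males, 5 of 7 above their whole range, and the groups overlapped. It was the only gene of the 10 to pass in cKO mice, where 2.7% of all genes passed. In Ctrl mice 0 of 10 passed, where 0.638% of all genes passed, and 0 of 10 had an unadjusted p under 0.05 (12.1% of all genes). There Sod1 was at 222 ± 6.01 CPM (n = 6) in females and 211 ± 14.03 (n = 6) in males, a difference of 0.08 ± 0.05 (edgeR adjusted p = 0.592). The Sod1 difference between cKO sexes lay close to the threshold. It was past it in 3 of 9 other settings of the fit and in 6 of 26 fits that left out 1 mouse each. The lowest value, 0.13 (adjusted p = 0.111), came without cKO female 2, whose Sod1 of 251 CPM was the highest of all 26 mice, and with the replicate block the adjusted p was 0.0754. Among the other genes, Gpx3 had the largest difference between cKO sexes, -0.15 ± 0.08 in females against males (edgeR adjusted p = 0.332).

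Markers of several cell types also differed in their means between cKO sexes, the comparison in which Sod1 and 2.7% of all genes passed. Of 6 cardiomyocyte markers 5 had positive values (median 0.15), and 2 passed as higher in cKO females than in cKO males: Tnni3, cardiac troponin I, by 0.24 ± 0.05 (edgeR adjusted p = 0.00821), and Myl2, ventricular myosin light chain, by 0.26 ± 0.06 (adjusted p = 0.0231). Ryr2, the calcium release channel of the sarcoplasmic reticulum, had the opposite sign at -0.18 ± 0.10 (edgeR adjusted p = 0.358). The summed level of the 6 markers ranged from 50422 to 60438 CPM in cKO males and from 55106 to 66392 in cKO females. All 6 macrophage markers had negative values (median -0.20, 0 past the threshold), with sums of 135 to 195 CPM in cKO males and 108 to 167 in cKO females. The 4 adipocyte markers tested had positive values (median 1.06, 0 past the threshold), while the sums of all 6 listed overlapped at 17.3 to 22.8 and 20.7 to 29.7 CPM. For cKO against Ctrl, Tnni3 was lower in males (log2 fold change -0.24 ± 0.05, edgeR adjusted p = 0.0316), as were the means of 5 of the 6 cardiomyocyte markers there (median -0.16) and of all 6 in females (median -0.09, 0 past the threshold). All 6 fibroblast markers had positive values in each sex (medians 0.09 and 0.11, 0 past the threshold), with sums of 1786 to 2414 CPM in Ctrl males, 2024 to 2377 in cKO males, 1946 to 2343 in Ctrl females and 1991 to 2773 in cKO females.

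The 83 genes of the respiratory chain and ATP synthase, a list taken by gene symbol after values were seen, had negative values for 82 genes in cKO against Ctrl males (median -0.15), with 7 past the threshold in edgeR, or more than the 0.443% of all genes. In females 80 were negative (median -0.07), and 0 passed, with 19 at an unadjusted p under 0.05. For the mean of both sexes 82 were negative (median -0.11), and 21 passed, where 1.33% of all genes did. Between cKO females and cKO males 80 were positive (median 0.15), with 19 past the threshold against 2.7% of all genes, and between the Ctrl sexes 70 were positive (median 0.05), with 1 past it against 0.638%. The median over all genes tested lay between 0.00101 and 0.00672 in these 5 comparisons. What part these marker lists or the respiratory chain genes had in the values of the antioxidant enzymes was not tested.

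A few pairs of enzymes varied together among mice of a group. Over the 26 mice, after the group mean was subtracted from log2 CPM, the 45 pairs of genes had a median Pearson r of 0.03 (range -0.41 to 0.60), with 25 pairs positive and 20 negative. By a two-sided permutation test of r within groups, adjusted over the 45 pairs, 3 pairs passed, each with an adjusted p of 0.0409: Prdx5 with Gpx4 (r = 0.60), Sod2 with Prdx3 (r = 0.59) and Gpx1 with Gpx4 (r = 0.58). By Spearman's rho 0 of 45 pairs passed (adjusted permutation p = 0.0991, 0.0826 and 0.0826 for the same 3 pairs). Without the 2 mice farthest from the median, r was 0.59, 0.59 and 0.54, and the adjusted permutation p rose to 0.0700, 0.0700 and 0.0975, so that no pair passed. Sod2 with Prdx3 pairs the matrix dismutase with the matrix peroxiredoxin, and Gpx4 was the gene common to the other two pairs.

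**Figure D4:**
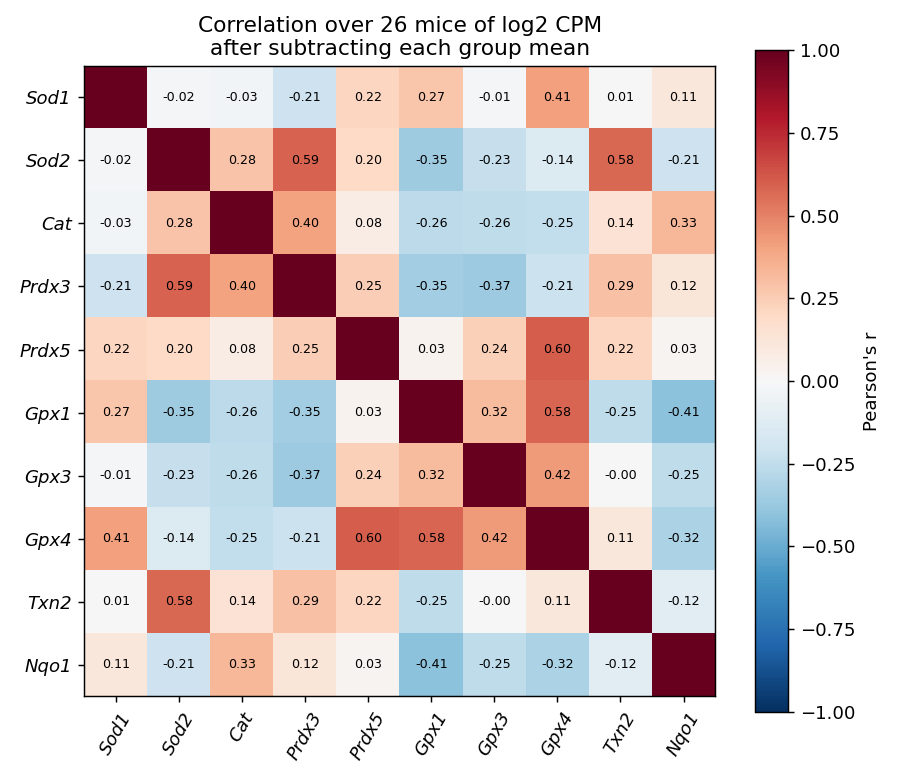
Pearson's r between the 10 genes over 26 mice, from log2 CPM with each group mean subtracted, on a colour scale from -1 to 1. The highest values are 0.60 (Prdx5 with Gpx4), 0.59 (Sod2 with Prdx3) and 0.58 (Gpx1 with Gpx4).

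For each enzyme, the gene most alike over the mice was sought among the 15347 tested genes outside the 10, by the same Pearson r. Sod2 had the closest match, Idh3a, a subunit of isocitrate dehydrogenase (r = 0.94, rho = 0.91, and r = 0.94 without the 2 farthest mice). Gpx4 was most like Vamp8, a vesicle fusion protein (r = 0.88), and Cat most like Scn4a, a voltage-gated sodium channel (r = 0.81). Gpx1 matched Postn, the matrix protein periostin (r = 0.80), Sod1 matched Atp5o, a subunit of ATP synthase (r = 0.80), and Txn2 matched Hspd1, the mitochondrial chaperonin (r = 0.80). Nqo1 was most like Trap1, a mitochondrial chaperone (r = 0.80), Gpx3 most like Cdk20 (r = 0.77), Prdx3 most like Uqcrc2, a core subunit of respiratory complex III (r = 0.76), and Prdx5 most like Cir1 (r = 0.73). Without the 2 farthest mice r was lower for these 9 pairs: 0.85 for Gpx4, 0.77 for Cat, 0.75 for Gpx1 and Nqo1, 0.73 for Prdx3, 0.71 for Txn2 and Prdx5, 0.70 for Sod1 and 0.66 for Gpx3. Each gene is the maximum over all those compared, so no p is given.

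Other redox genes were compared as lists. Of 25 other peroxide and thiol enzymes, all tested, 0 passed for cKO against Ctrl in edgeR in either sex, and 21 had negative values in males (median -0.07) and 19 in females (median -0.05). At an unadjusted p under 0.05 stood 7 of the 25 in males, where 13.2% of all genes did, and 1 in females, where 5.15% did. Of 32 genes of glutathione supply and NRF2, 31 were tested and 0 passed in either sex (5 and 0 at an unadjusted p under 0.05), with medians of -0.04 and -0.01. The 10 oxidant sources gave 0 calls in either sex (3 and 1 at an unadjusted p under 0.05). Among them Nox4, an NADPH oxidase that makes hydrogen peroxide, was at 1.09 ± 0.29 in males (edgeR adjusted p = 0.0748) and -0.03 ± 0.30 in females (adjusted p = 0.9999). For the difference of the genotype effects, females minus males, Nox4 was at -1.12, and 0 of the 10 oxidant sources passed (lowest edgeR adjusted p = 0.999). Between the sexes, 2 genes of the glutathione list passed, both glutathione transferases. Of the 31 tested, 1 passed in Ctrl mice, where 0.638% of all genes did, and 2 in cKO mice, where 2.7% did. Gsta3 was higher in females in Ctrl mice (18.5 ± 5.99 CPM, n = 6, against 10.2 ± 1.39, n = 6, edgeR adjusted p = 0.0440) and in cKO mice (17.7 ± 3.79, n = 7, against 9.73 ± 2.68, n = 7, adjusted p = 0.0175). Gstt1 was higher in cKO females (12.6 ± 1.75 CPM, n = 7) than in cKO males (9.15 ± 0.604, n = 7, edgeR adjusted p = 0.0177). Both belong to families of similar genes, and reads shared between copies make their counts uncertain.

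**Figure D5:**
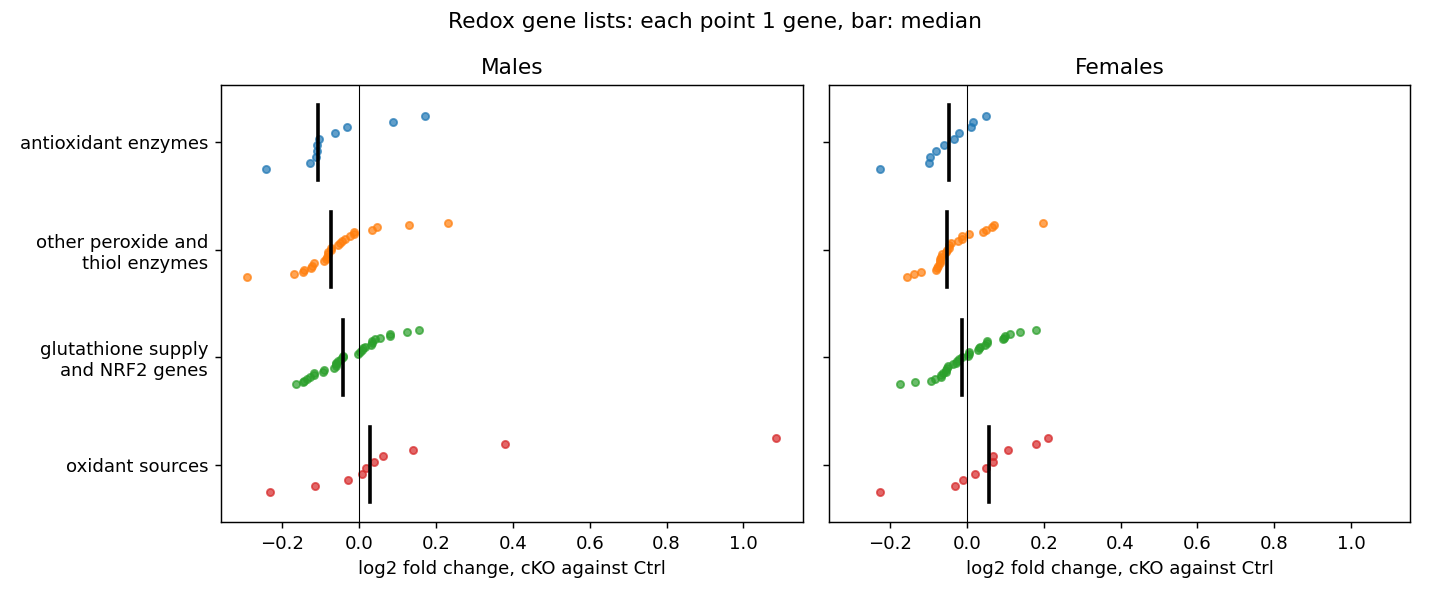
Log2 fold change of cKO against Ctrl for each gene of 4 redox lists in males and in females, with the list median as a bar. The 10 antioxidant enzymes have medians of -0.11 and -0.05, and the point near 1.09 in males is Nox4.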

How the data were processed

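Poly-A RNA of 26 left ventricles was sequenced from strand-specific libraries. A matrix of raw, whole-number counts was deposited by the authors for all genes, with no normalization. The submitters' processing notes name FastQC 0.74, cutadapt 4.6, STAR 2.7.11a, HTSeq and GRCm39, and the annotation release and the strand setting of the counting are not given in the sources used here. Reads shared with near-identical copies can therefore be split or lost, and overlapping antisense genes cannot be told apart.

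Groups follow the labelled genotype and sex. Nothing says that replicate numbers mark shared litters. The edgeR p-values set differences between groups against the spread among mice within groups. Libraries of 1 group were compared in all 72 pairs, and their counts differed beyond sampling noise (chi-square per degree of freedom 7.79 to 36.4). Counts were fitted in R 4.3.3 with edgeR 4.0.16: filterByExpr with a minimum count of 10, TMM scaling, 1 mean for each of the 4 groups over all 26 mice, robust quasi-likelihood F tests and Benjamini-Hochberg adjustment over all 15357 genes. Log2 CPM used a prior count of 2, and permutation tests drew 100000 shuffles of mice within groups. Transcript lengths came from GENCODE M21, which matched 98.3% of the genes tested, and promoters from RefSeq by symbol, which matched all 10 genes. Alternatives were DESeq2 1.42.0 (Wald test, size factors), limma 3.58.1 voom, no count filter, a stricter threshold, the compared groups alone, the replicate number as a block, a length and GC correction, and mice left out. The length and GC correction used the longest annotated transcript of each gene, which is a retained intron form for Sod1 and Prdx5. It was not repeated with principal isoforms. The level per principal isoform was added after seeing the data.

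The 10 genes and the lists were chosen with earlier results of these data known. The text names all 10, Ppp2r2a, genes of the other redox lists with an adjusted p under 0.05 (at most 4 per list and comparison), and the 1 gene most alike to each of the 10. Nox4 and the cardiomyocyte markers Tnni3, Myl2 and Ryr2 are named in addition, after their values were seen. Scripts were tested on simulated counts.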

Additional observations from a re-analysis of the deposited data

How the results depend on the processing

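Calls among the 10 genes changed in 2 comparisons. Between cKO females and cKO males, where 1 gene (Sod1) passed, 0 passed with DESeq2 size factors, no count filter, the replicate block, the length and GC correction with the replicate block, an adjusted p under 0.01, the compared groups alone, or without Ctrl males 3 and 6, and 0 to 1 when 1 mouse was left out. For the mean genotype effect 3 passed with the DESeq2 Wald test, and 0 to 1 with a mouse left out. The Wald test called 544 of the 8807 genes it gave an adjusted p (6.18%), against 205 of 15357 in edgeR (1.33%). The replicate block changed no other call among the 10 genes. Same-numbered mice correlated at a mean of -0.026 (Ctrl and cKO males) and 0.12 (Ctrl and cKO females), with the lowest pair at -0.16 and -0.097, so the numbers were not taken as pairs. No pair of the 10 genes passed by correlation without the 2 farthest mice (0 against 3), and per kb of the principal isoform Sod1 was at 328 and Prdx5 at 281.

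Counts over all genes, the background of the report, moved more. In males they went from 68 (28 higher, 40 lower) to 31 with no filter, 29 with the length and GC correction (5 higher, 24 lower), 18 with that correction and the replicate block, 4 at an adjusted p under 0.01, 7 without Ctrl males 3 and 6, 211 with voom and 390 with the DESeq2 Wald test. With 1 mouse left out they ranged from 4 (without Ctrl male 5) to 122 (without Ctrl female 6), and 11 mice moved them by over 1.5 times: Ctrl males 1 to 5, cKO males 1, 2, 5 and 6, Ctrl female 6 and cKO female 2. In females 5 became 3 with the replicate block, 3 with the correction and block, 3 at 0.01, 1 with the compared groups alone and 9 with the DESeq2 Wald test, and 3 to 7 with 1 of the mice left out. Between Ctrl sexes 98 became 35 at 0.01, 61 with the compared groups alone, 40 without Ctrl males 3 and 6 and 244 with the DESeq2 Wald test (55 to 125 with a mouse left out). Between cKO sexes 414 became 244 with no filter, 213 with the correction and block, 69 at 0.01, 688 with voom and 697 with the DESeq2 Wald test (163 to 548). For the mean effect 205 (72 higher, 133 lower) became 113 with no filter, 23 at 0.01, 325 with voom and 544 with the DESeq2 Wald test (96 to 349), and with the length and GC correction 25 genes were higher and 145 lower. The causes of these shifts were not tested.

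Signs reversed for 15 of 60 fitted differences of the 10 genes, each at most 0.038 in size in the fit as reported. For Gpx3 in females the value was -0.0030 with the replicate block, -0.0048 with the correction and block and -0.0026 with voom, and -0.056 to 0.058 with a mouse left out. For the difference of the genotype effects the length and GC correction gave -0.024 for Prdx3, -0.00021 for Prdx5 and -0.025 for Nqo1, and with the replicate block added -0.024, -0.00025 and -0.032. Leaving out a mouse gave -0.013 to 0.040 for Prdx3, -0.0062 to 0.045 for Prdx5, -0.054 to 0.088 for Nqo1, -0.089 to 0.011 for Gpx1 and -0.0079 to 0.041 for Txn2. Between Ctrl sexes Gpx1 was at 0.022 with voom (-0.061 to 0.037 with a mouse left out), and Gpx3 at -0.0016 with the replicate block, -0.019 with the correction and -0.027 with both (-0.043 to 0.072). Between cKO sexes Sod2 was at 0.052 with the correction and 0.055 with the block added (-0.015 to 0.013 with a mouse left out), and the left-out ranges were -0.028 to 0.038 for Cat, -0.035 to 0.0029 for Prdx3 and -0.028 to 0.018 for Gpx4. Cat was at 0.0046 for the mean effect with the correction and block (-0.023 to 0.011 with a mouse left out), and its ranges were -0.061 to 0.0063 in males and -0.014 to 0.033 in females. The 10 genes had 592 to 22490 counts per library.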
